A study of Mus musculus with 12 samples.

Results

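The 85 genes described here encode subunits of the oxidative phosphorylation machinery of mitochondria, and were taken by symbol from the 25793 gene rows of the series' count table. A gene was taken if its symbol began with Nduf followed by a, b, c, s or v (complex I, without the Ndufaf assembly factors), was Sdha, Sdhb, Sdhc or Sdhd (complex II), or began with Uqcr (complex III), Cox4 to Cox8 (complex IV) or Atp5 (complex V). This gave 38 genes of complex I, 4 of complex II, 7 of complex III, 19 of complex IV and 17 of complex V. The symbol pattern also took in Atp5s, Atp5sl and Cox4nb, which are not known as subunits, and placed Ndufa4 with complex I although its protein is now counted with complex IV. Cox7a2l, a relative of Cox7a2, was placed with complex IV by its symbol alone. Of the 85 genes, 73 had enough counts to be tested, among 7542 tested genes in all.

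RNA was measured in 12 libraries of OT-II CD4+ T cells, whose transgenic receptor recognises an ovalbumin peptide, on the C57BL/6 background. All cells had been transduced and sorted as GFP+, given to B6 recipients together with MD4 B cells that express dsRed, and recovered as CXCR5hi lymph node cells 5 days after the recipients received HEL-OVA, LPS and Alum. The groups were 6 libraries of Pdcd1+/+ cells (WT) and 6 of Pdcd1KI/KI cells (KI). Pdcd1 encodes PD-1, an inhibitory receptor of activated T cells, and what the knock-in allele changes is not stated in the labels. Each library was amplified from a small pool of sorted cells. Each title carries a first number (1 or 2) and a second number (1 to 3), so that 3 libraries of each genotype have each first number. What the numbers stand for is not stated, nor is it stated that libraries came from separate animals, so p-values measure the spread between these libraries, which may be technical.

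Mitochondria make most of the ATP of a resting cell by passing electrons from NADH and succinate through complexes I to IV to oxygen, and complex V uses the resulting proton gradient to make ATP. Complex I takes electrons from NADH, complex II from succinate, complex III passes them to cytochrome c, and complex IV hands them to oxygen. All but complex II also need subunits encoded in mitochondrial DNA, which are not analysed here. T cells that have been activated by antigen use both glycolysis and oxidative phosphorylation, and mitochondrial content is known to grow after activation.

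Gene counts per library ran from 717506 in WT 1-3 to 1801504 in KI 2-2. WT 1-3 and KI 2-1 stood apart, with 43.8% and 34.3% of their reads aligned to more than 1 place against a median of 28.3%. Pdcd1 was lower in every KI library (21.5 to 130 CPM, counts scaled to a common library total) than in every WT library (166 to 523 CPM). The summed CPM of 8 T cell markers was 5269 to 7794 and that of 4 markers of follicular helper T cells 1000 to 1859; all 12 of these markers had counts. Markers of other cells were lower: 8 B cell markers summed to 114 to 318 CPM with Pax5 at 0, 6 markers of CD8 T and NK cells to 10.6 to 102 CPM with Ncr1 at 0, 8 myeloid and dendritic markers to 1.24 to 215 CPM with Cd14 and Itgax at 0, and 4 stromal markers to 25.1 to 77.6 CPM with Col1a2 and Pdgfra at 0.

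The levels of different genes were compared in the FPKM values of the authors' second table, which are scaled by transcript length and depth. Cox4i1, the common form of a nuclear-encoded complex IV subunit, had the highest mean level of all 85 genes, 1104.5 ± 114.2 FPKM (SD, n = 12), with 964 in the lowest library and 1358 in the highest. It was followed by Atp5g3, a gene for the proton-carrying ring of complex V, at 997.8 ± 181.1 FPKM (SD, n = 12), and these ranges overlapped. In complex III the highest was Uqcrh, an acidic hinge subunit, at 447.7 ± 120.8 FPKM (SD, n = 12). In complex I it was Ndufb8, an accessory subunit of the membrane arm, at 313.0 ± 50.9 FPKM (SD, n = 12), with Ndufb9 at 312.5 ± 66.3 and Ndufa6 at 309.2 ± 57.9 FPKM within its spread. In complex II it was Sdhb, the iron-sulfur subunit, at 92.2 ± 18.9 FPKM (SD, n = 12).

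At the low end of the tested genes, Ndufs1, the largest iron-sulfur subunit of complex I, had 16.5 ± 10.2 FPKM (SD, n = 12) and ranged from 2.68 to 33.1 FPKM. Uqcrb, a small subunit of complex III, had 44.2 ± 30.0 FPKM and Sdha, the catalytic flavoprotein of complex II, 47.9 ± 20.6 FPKM (SD, n = 12 each). The lowest symbols filed under complexes IV and V were Cox4nb (8.43 ± 2.05 FPKM) and Atp5sl (7.18 ± 3.75 FPKM; SD, n = 12 each), both among the genes that are not known as subunits. Other core subunits lay between these ends: Ndufv1, which binds the first electron acceptor of complex I, had 46.4 ± 23.0 FPKM, Uqcrc1, a core protein of complex III, 169.8 ± 46.5, Uqcrfs1, its Rieske iron-sulfur protein, 195.9 ± 41.4 FPKM (SD, n = 12 each). Cox5a had 553.0 ± 125.5 and Cox5b 400.5 ± 89.9 FPKM. For the rotary part of complex V, Atp5c1 (gamma subunit) had 629.0 ± 108.5, Atp5b (catalytic beta subunit) 320.4 ± 64.7 and Atp5a1 (alpha subunit) 121.4 ± 37.1 FPKM (SD, n = 12 each).

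**Figure D1:**
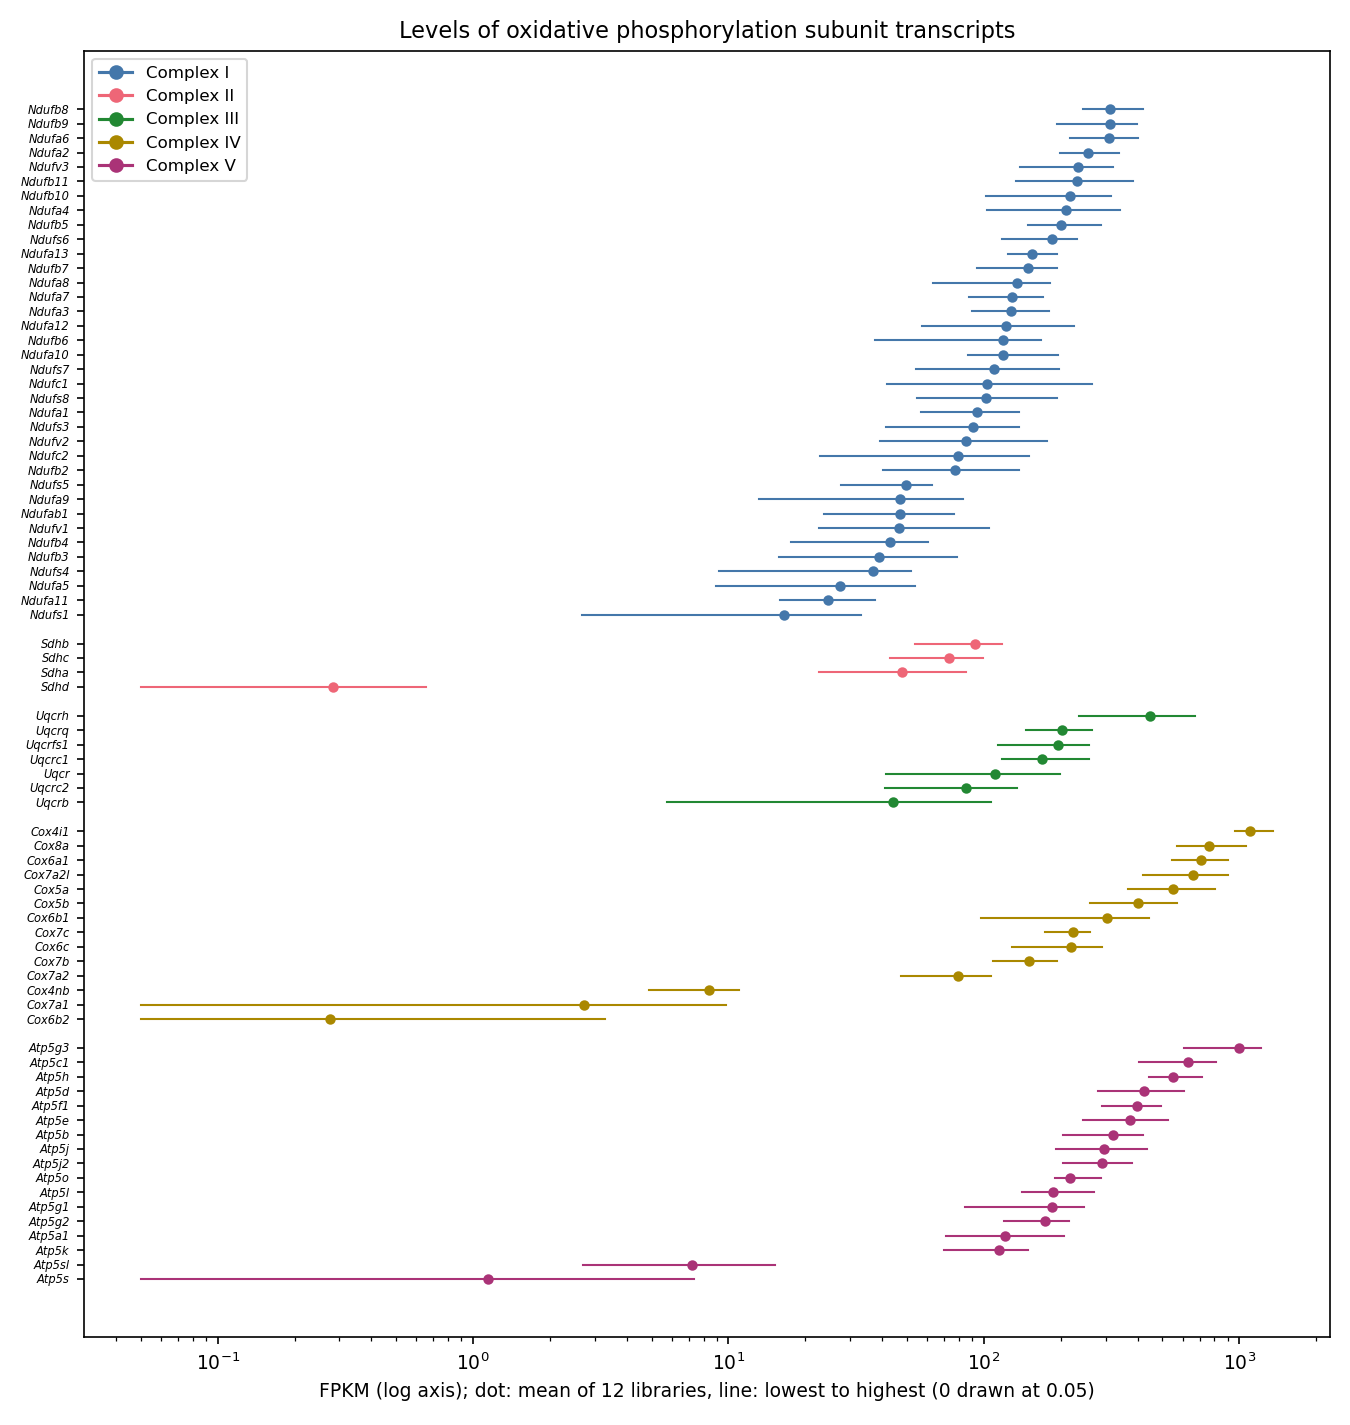
Mean FPKM (dots, log axis) of each gene over 12 libraries, with lines from the lowest to the highest library and genes grouped by complex; genes at 0 in every library and 1 gene not reported here are not drawn. Cox4i1 and Atp5g3 stand highest at 1104.5 and 997.8 FPKM, while tested complex I genes lie between 16.5 and 313.0 FPKM.

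Several complex IV subunits exist as alternative forms that differ between tissues, and the forms known from few tissues were at or near 0 here. Cox4i2, Cox6a2, Cox7b2, Cox8b and Cox8c, forms known from lung, muscle or testis, had 0 counts and 0 FPKM in all 12 libraries. Cox6b2, a testis form, had 3 counts in all libraries together, against 302.4 ± 120.8 FPKM (SD, n = 12) for Cox6b1. Cox7a1, the heart and muscle form, had 18 counts in all and 2.72 FPKM on average, against 79.5 ± 19.3 FPKM for Cox7a2 and 661.7 ± 161.0 FPKM for the related Cox7a2l (SD, n = 12 each). Ndufa4l2 was at 0 and Ndufa4 at 209.9 ± 71.0 FPKM. The ring subunit of complex V has the same mature protein from 3 genes, of which Atp5g3 was highest, with Atp5g1 at 185.1 ± 53.0 and Atp5g2 at 174.3 ± 30.4 FPKM (SD, n = 12 each).

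For 3 genes the count table held next to nothing although the protein is needed in every cell that respires. Cox8a, the common form of the smallest complex IV subunit, had 0 counts in every library, yet its FPKM was 568 to 1068, with a mean of 762.4 ± 165.1 (SD, n = 12), the third highest of the set. Uqcr, a small complex III subunit that RefSeq names Uqcr11, had 0 counts and 41.6 to 199 FPKM. Sdhd, a membrane anchor of complex II, had 1 count in all libraries and at most 0.655 FPKM. The 2 tables therefore disagree on Cox8a and Uqcr, and a 0 in the count table is not a measure of absence for them; the cause was not tested. Beside these 3 genes, Atp5s with 42 counts and the 8 other forms named above with at most 18 counts fell below the filter, which makes 12 of the 85 genes.

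Many subunit genes have near-identical copies elsewhere in the genome, and reads that match 2 places are set aside by the counting. In the mm9 genome (NCBIM37), 45 of the 85 genes had at least 1 stretch of 50 bases of their longest coding transcript that also occurred elsewhere, and 40 had none. All stretches of Atp5g2 occurred elsewhere, as did 89.4% of those of Atp5l, 62.7% of Cox5b, 61.5% of Uqcrb, 54.3% of Cox7a2l and 43.0% of Ndufs3. Counts of these genes are uncertain where reads could be set aside or shared with a copy. The copied share is not a measure of how many reads were lost. Atp5g2 still had 2333 counts, but all of its stretches recurred on a sequence of the build outside the assembled chromosomes. Whether the authors' alignment included that sequence is not stated, so these counts do not speak for the other copied genes. The share was 21.0% for Cox8a, 39.1% for Uqcr and 0 for Sdhd, Ndufv2, Ndufc2, Sdha, Atp5a1 and Atp5d. Among the ring genes of complex V it was 0 for Atp5g3 and 29.4% for Atp5g1 (99.7% of its coding stretches), with Atp5g2 copied throughout. Whether this affected their order in FPKM was not tested.

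The 85 genes together took 1.29% (WT 1-3) to 1.79% (KI 1-1) of the gene counts of a library. Their share was 1.55% ± 0.157 in WT and 1.67% ± 0.0918 in KI (SD, n = 6 per genotype), and the ranges overlapped. On the log2 CPM scale, with a prior count of 2, the mean over the 73 tested genes was 7.15 ± 0.108 in WT and 7.15 ± 0.123 in KI (SD, n = 6 each). By first number within genotype, it was 7.18 to 7.28 in WT with first number 1, 6.99 to 7.09 in WT with 2, 7.02 to 7.11 in KI with 1 and 7.07 to 7.36 in KI with 2. The 3 WT libraries with first number 1 were all above the WT libraries with 2 on this scale, while in KI the libraries with 1 and 2 overlapped. As a share of gene counts, the WT libraries overlapped too, at 1.29% to 1.76% with 1 and 1.49% to 1.59% with 2. The highest mean log2 CPM belonged to KI 2-1, whose share of gene counts, 1.53%, was the lowest of KI. WT 1-3 and KI 2-1 had the lowest scaling factors (TMM), 0.801 and 0.868, so the order of libraries depends on the scaling. In bulk RNA, fewer cells of a type and less RNA per cell cannot be told apart.

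The complexes differed in this respect. The mean log2 CPM of complex I was 6.55 in WT and 6.55 in KI, that of complex II 7.10 and 7.11, that of complex III 7.45 and 7.30, that of complex IV 7.88 and 7.89, and that of complex V 7.92 and 7.97. Each of these KI minus WT differences was smaller than the SD between libraries of a genotype. Between first numbers, complex III was at 6.91 to 7.51 in the 6 libraries with first number 1 and at 7.50 to 7.63 in the 6 with 2, so WT 1-2 alone reached into the range of the second set. The complex III difference was uneven over its 6 tested genes: the log2 difference (2 minus 1) was 1.56 for Uqcrb, the gene with the lowest level, 0.58 for Uqcrc2, 0.49 for Uqcrh, 0.11 for Uqcrq, -0.08 for Uqcrfs1 and -0.37 for Uqcrc1, and Uqcrb alone passed the test given further on. As a share of gene counts, complex III overlapped between the sets, at 0.0994% to 0.149% and 0.123% to 0.168%. In KI the complex III means were 6.91 to 7.14 with first number 1 and 7.58 to 7.60 with 2, which did not overlap. Complex II was at 6.72 to 7.18 with first number 1 and at 7.20 to 7.41 with 2. These ranges did not overlap either, but the mean rests on 3 tested genes, of which Sdha alone passed the test given further on. As a share of gene counts, complex II overlapped between the sets, at 0.0302% to 0.0422% and 0.0393% to 0.0604%. Complexes I, IV and V had overlapping ranges between first numbers over all libraries and within KI, but not within WT. In WT, complex I was at 6.56 to 6.75 with first number 1 and at 6.37 to 6.45 with 2. Complex IV was at 7.95 to 8.09 and 7.60 to 7.85, and complex V at 7.97 to 8.06 and 7.70 to 7.88. As shares of gene counts, these WT ranges overlapped for each of these complexes.

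**Figure D2:**
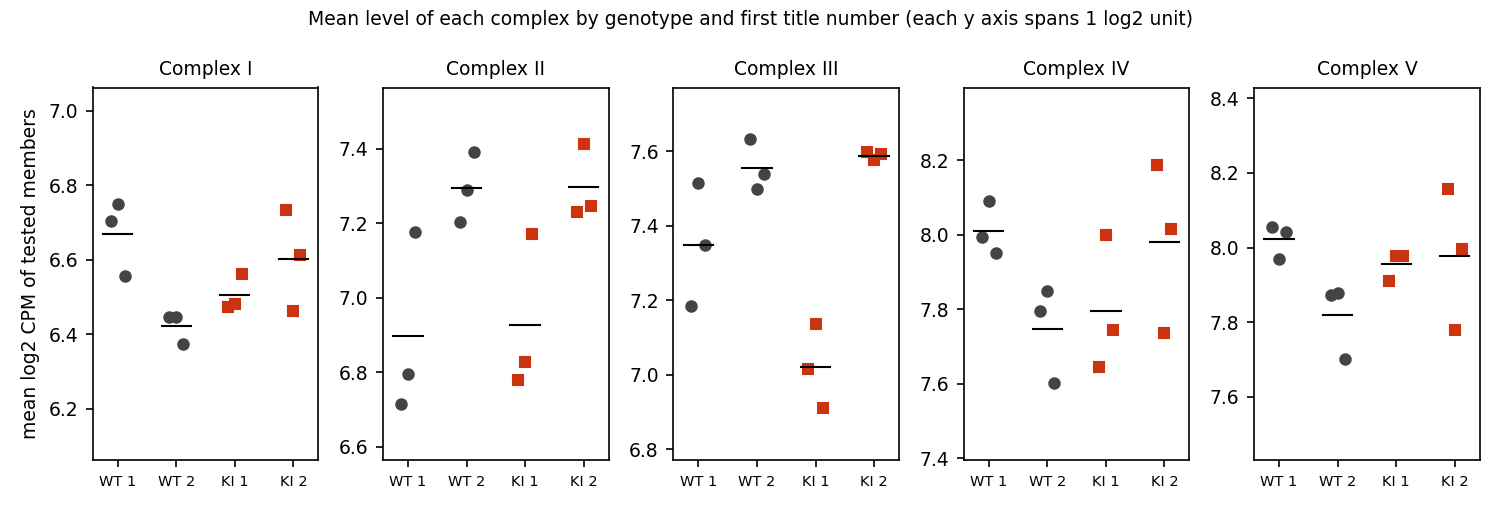
Mean log2 CPM (prior count 2) of the tested genes of each complex in each library, by genotype (circles WT, squares KI) and first title number, with a bar at the mean of 3 libraries. The libraries with first number 1 sit at 6.91 to 7.51 for complex III and those with 2 at 7.50 to 7.63, while WT and KI overlap in every panel.

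KI against WT, the comparison the series was made for, moved no oxidative phosphorylation gene past the threshold. With edgeR's quasi-likelihood test, 0 of 73 genes had an adjusted p under 0.05, and 0 of 73 had an unadjusted p under 0.05. Over all tested genes the shares were 0.0265% and 5.40%. The log2 fold change (KI minus WT) was positive for 39 genes and negative for 34, with a median of 0.04, beside 0.02 over all tested genes. By complex the median was 0.05 for I, 0.06 for II, -0.13 for III, 0.04 for IV and 0.01 for V. In 0 of 73 genes did the KI libraries lie wholly above or wholly below the WT libraries, which held for 0.371% of all tested genes.

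The genes with the smallest p-values in each direction show how large a difference could be without exceeding the spread between libraries. The fit had no term for the first number, so this spread includes differences between the first numbers. Ndufb6, an accessory subunit of complex I, had 34.0, 76.8 and 88.5 CPM as the lowest, median and highest WT library and 53.4, 97.9 and 135 CPM in KI. The groups overlapped, and its log2 fold change was 0.49 with a standard error (SE) of 0.30 (edgeR adjusted p = 0.938). Ndufa8, another accessory subunit, had 78.8, 115 and 159 CPM in WT and 92.6, 147 and 196 CPM in KI (log2 fold change 0.39, SE 0.24). Atp5g1 had 106, 160 and 238 CPM in WT and 172, 196 and 290.5 CPM in KI (log2 fold change 0.36, SE 0.23). Both overlapped between genotypes.

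On the lower side, Ndufs4, an accessory subunit next to the NADH-binding part, had 66.2, 92.7 and 100 CPM as the lowest, median and highest WT library and 18.6, 73.2 and 92.6 CPM in KI (log2 fold change -0.48, SE 0.31). Ndufa9, which lies by the quinone site, had 63.4, 95.7 and 113 CPM in WT and 28.7, 69.5 and 126 CPM in KI (log2 fold change -0.44, SE 0.30). Ndufs1 had 28.6, 74.0 and 96.7 CPM in WT and 10.99, 27.6 and 94.5 CPM in KI (log2 fold change -0.64, SE 0.46). None of these differences exceeded the spread between libraries. Cox4i1, with a high level and a smaller error, averaged 992 ± 195 CPM over the WT libraries and 932 ± 139 CPM over the KI libraries (SD, n = 6 per genotype). Its log2 fold change was -0.09 with an SE of 0.18. Among the other core genes the log2 fold change was 0.39 (SE 0.31) for Ndufv1, 0.06 (SE 0.29) for Sdha, 0.11 (SE 0.21) for Sdhb, 0.23 (SE 0.21) for Uqcrc1, 0.21 (SE 0.18) for Uqcrfs1, 0.25 (SE 0.18) for Cox5a, 0.12 (SE 0.21) for Cox5b, 0.16 (SE 0.17) for Atp5b, 0.23 (SE 0.16) for Atp5c1 and 0.23 (SE 0.24) for Atp5a1.

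Within first number 1 (3 KI against 3 WT libraries), 23 of the 73 genes had a positive and 50 a negative KI minus WT log2 fold change, with a median of -0.15. Within first number 2 the counts were 55 positive and 18 negative, with a median of 0.15. Over all tested genes the medians were 0.02 and 0.01. With edgeR, 0 of 73 passed the adjusted threshold within either first number, where 0.0403% and 0.0126% of all tested genes did. An unadjusted p under 0.05 was found for 7 members within first number 1 and 4 within 2, beside 9.44% and 5.17% of all tested genes. The medians of these TMM-scaled fits thus had opposite signs for the 2 first numbers, and the pooled median of 0.04 lies between them. The members' share of gene counts did not have this pattern. It averaged 1.55% in WT and 1.70% in KI with first number 1, and 1.55% and 1.64% with 2, with overlapping ranges. Of summed FPKM the averages were 2.23% and 2.54% with 1, and 2.40% and 2.51% with 2.

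The difference between first numbers was tested gene by gene as an interaction. With edgeR, 0 of 73 genes had an adjusted p under 0.05 and 7 had an unadjusted p under 0.05, where the shares over all tested genes were 0.00% and 7.21%. The interaction (KI minus WT at first number 2, less the same at 1) was positive in 51 genes and negative in 22, with a median log2 value of 0.29 beside 0.00 over all tested genes. With libraries scaled by total counts in place of TMM the median was 0.07 beside -0.21 over all tested genes. With the FPKM values (pseudocount 1) the median of the members was below 0, -0.04, beside -0.26 over all tested genes. The median of the members therefore shrank with total counts and changed sign only with FPKM, whose fit also used another model and gene filter. It was above that of all tested genes in each of these 3 settings. By complex the TMM median was 0.31 for I, -0.43 for II (3 genes), 0.26 for III, 0.36 for IV and 0.13 for V.

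Cox6c, an accessory subunit of complex IV, had the smallest interaction p. It had 167, 188 and 170 CPM in WT 1-1, 1-2 and 1-3 and 66.7, 139 and 82.5 CPM in KI 1-1, 1-2 and 1-3. With first number 2 it had 127, 98.4 and 103 CPM in WT and 202, 126 and 169 CPM in KI. With first number 1 every WT library was above every KI library, and with 2 KI 2-2 alone lay below the highest WT library. The interaction was 1.45 (SE 0.41; edgeR adjusted p = 0.333), so it did not pass over all genes tested. Cox6b1 had an interaction of 1.20 (SE 0.38; edgeR adjusted p = 0.404) and Ndufa6 one of 0.84 (SE 0.32; edgeR adjusted p = 0.524). The most negative by p were Ndufs8, a core iron-sulfur subunit (-0.76, SE 0.46), Ndufa8 (-0.61, SE 0.40) and Sdha (-0.51, SE 0.39), none past the threshold.

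**Figure D3:**
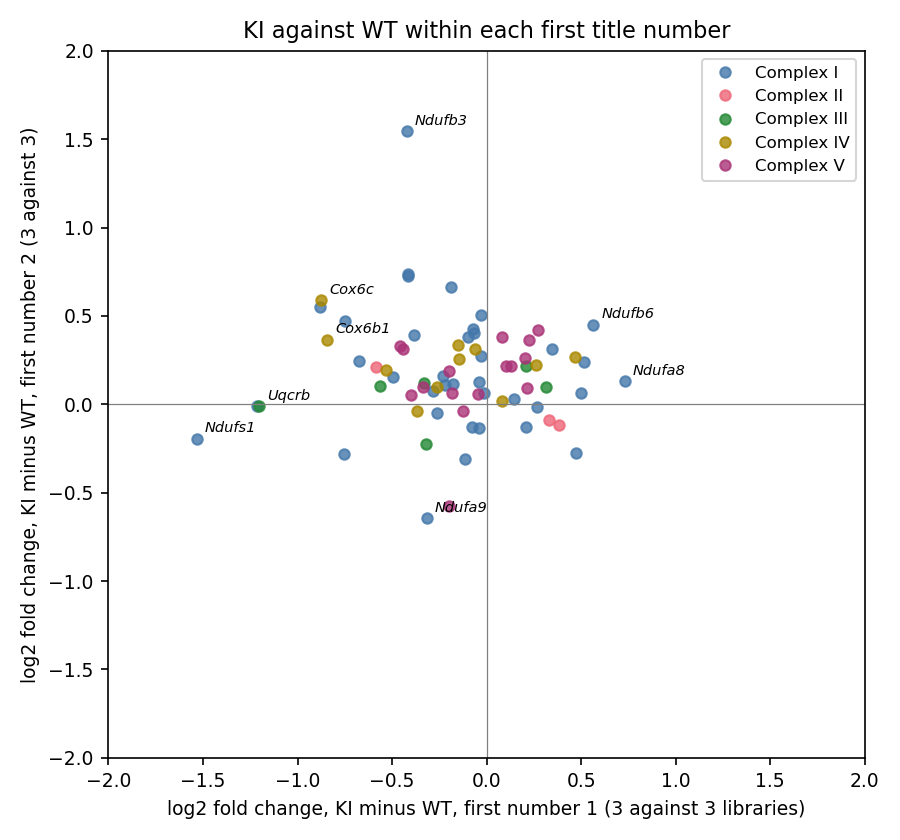
Each point is 1 of the 73 tested genes, coloured by complex, with its KI minus WT log2 fold change among libraries with first number 1 on the x axis and with first number 2 on the y axis. Of the 73 genes, 50 lie left of 0 on the x axis and 55 above 0 on the y axis, and 0 passed the adjusted threshold on either.

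More genes passed between the first numbers than between the genotypes. The models were unlike, since the fit for genotype had no term for the first number. With the first number added to that fit, 0 members passed for KI against WT as well. With edgeR and genotype in the model, 11 of the 73 genes had an adjusted p under 0.05, where 16.0% of all tested genes did. Higher with first number 2 were 5 genes (8.47% of all tested genes), and lower were 6 (7.54% of all tested genes). These members' shares are near the background, and the median log2 difference (2 minus 1) was -0.08, beside 0.01 over all tested genes. The genes called higher were spread over complexes I (2, counting Ndufa4), II, III and IV. Those called lower were spread over complexes I (3), IV (1, Cox7a2l, placed there by symbol) and V (2). In 1 gene all libraries with first number 2 lay above all with 1, and in 2 genes below, where the shares of all tested genes were 2.97% and 3.51%.

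Ndufc2, an accessory subunit in the membrane arm of complex I (mm9 chr7:104548513-104556312), was the gene whose libraries did not overlap on the higher side. It had 46.0, 21.2 and 50.1 CPM in WT 1-1 to 1-3 and 57.8, 22.3 and 31.6 CPM in KI 1-1 to 1-3. With first number 2 it had 64.6, 102 and 82.3 CPM in WT and 121, 86.2 and 127 CPM in KI. Every library with first number 2 exceeded every library with 1, and the log2 difference was 1.34 (SE 0.28; edgeR adjusted p = 0.00277).

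Ndufv2, the partner of Ndufv1 in the NADH-oxidising part (mm9 chr17:66428135-66450899), showed the reverse. It had 241, 213 and 183 CPM in WT and 236, 232 and 350 CPM in KI with first number 1. With first number 2 it had 109, 88.9 and 73.2 CPM in WT and 151, 80.4 and 108 CPM in KI. The sets did not overlap, and the log2 difference was -1.26 (SE 0.19; edgeR adjusted p = 0.000153).

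Ndufb11, an X-linked accessory subunit (mm9 chrX:20192452-20194745), had 395, 300 and 294 CPM in WT and 295, 344 and 306 CPM in KI with first number 1. With first number 2 it had 184, 186 and 192 CPM in WT and 177, 178 and 159 CPM in KI. The sets did not overlap and the second was the tighter, with 179 ± 11.5 CPM against 322 ± 40.2 CPM (SD, n = 6 each). The log2 difference was -0.85 (SE 0.15; edgeR adjusted p = 0.000499). Within the membrane arm of complex I, Ndufc2 and Ndufb11 thus differed in opposite directions.

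The other 8 called genes overlapped between the sets in at least 1 library. Sdha had 85.1, 133 and 196 CPM as the lowest, median and highest of the 6 libraries with first number 1 and 196, 232 and 318 CPM with 2 (log2 difference 0.84, SE 0.20; edgeR adjusted p = 0.00679). Uqcrb had 4.12, 14.96 and 25.9 CPM against 22.2, 41.0 and 57.0 CPM (log2 difference 1.56, SE 0.43; edgeR adjusted p = 0.0174), with both low levels and many copied stretches. Cox6b1, a subunit on the intermembrane side of complex IV, had 61.2, 121 and 211 CPM against 174, 240 and 329 CPM (log2 difference 0.95, SE 0.23; edgeR adjusted p = 0.00788). Within KI the 3 libraries with first number 2 were all above those with 1 for Cox6b1, within WT the libraries overlapped, and its interaction did not pass the threshold. Ndufa4 had 77.6, 90.3 and 127 CPM against 107, 165 and 194 CPM (log2 difference 0.70, SE 0.20; edgeR adjusted p = 0.0203).

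Among the lower genes, Atp5a1 had 324, 411 and 537 CPM with first number 1 and 193, 280 and 336 CPM with 2 (log2 difference -0.64, SE 0.17; edgeR adjusted p = 0.0113). Atp5d, the delta subunit of the central stalk of complex V, had 528, 606 and 724 CPM against 312, 397 and 572 CPM (log2 difference -0.52, SE 0.16; edgeR adjusted p = 0.0272). The partner genes Atp5b and Atp5c1 had log2 differences of 0.02 (SE 0.15) and 0.01 (SE 0.13) and did not pass. Cox7a2l had 908, 1147 and 1311 CPM against 562, 773 and 952 CPM (log2 difference -0.55, SE 0.16; edgeR adjusted p = 0.0207). Ndufs3, a core subunit of complex I, had 130, 141 and 166 CPM against 50.2, 86.2 and 156 CPM (log2 difference -0.67, SE 0.23; edgeR adjusted p = 0.0457), and KI 2-1 alone of the second set lay within the first.

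**Figure D4:**
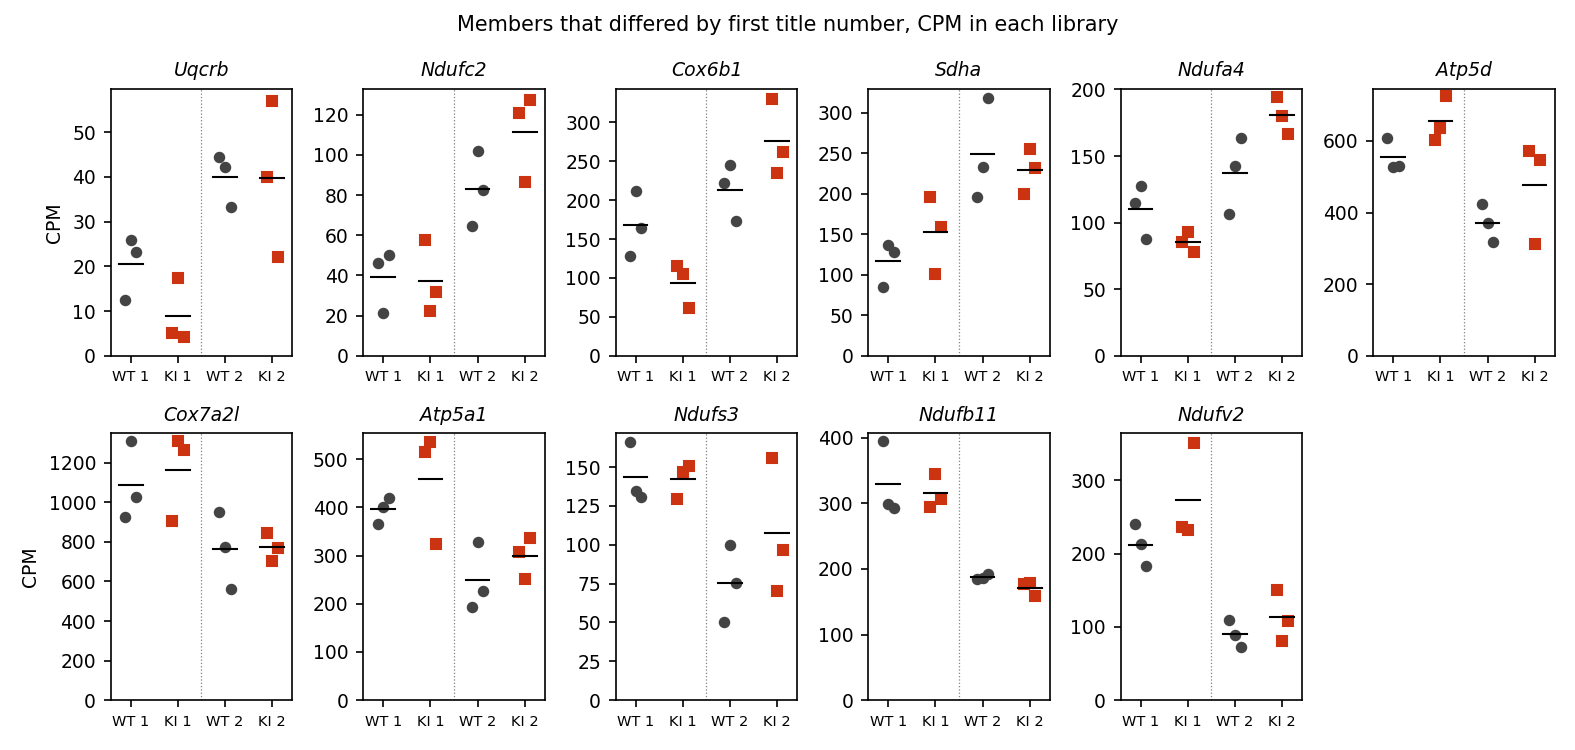
CPM of the 11 genes that differed between first numbers, per library, with WT as circles, KI as squares, bars at means of 3 libraries and a dotted line between first numbers 1 and 2. Ndufc2 (higher with 2) and Ndufv2 and Ndufb11 (lower with 2) have no overlap between the 2 sets, while the other 8 overlap in at least 1 library.

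How firmly these calls stand differs. The calls of Ndufv2, Ndufb11, Ndufc2, Sdha, Cox6b1 and Atp5a1 held when any 1 of the 12 libraries was left out, those of Uqcrb in 11 of 12 and Ndufa4 in 10, and those of Atp5d and Cox7a2l in 7 and Ndufs3 in 3. Over 12 other settings, such as DESeq2, FPKM or 1 genotype alone, Ndufv2 was called in 12, Ndufc2 in 11, Ndufb11 and Cox6b1 in 10, Sdha in 9, Atp5a1, Cox7a2l and Ndufa4 in 8, Atp5d in 7 and Ndufs3 in 6, and Uqcrb in 9 of the 10 that could test it. No sign changed, but the log2 difference of Cox6b1 ran from 0.37 to 1.61. Without KI 1-3 the number called fell to 7, and without KI 2-2 to 6. Without WT 1-3 and KI 2-1, the libraries that stood apart, it was 14 (4 higher and 10 lower), with KI against WT and the interaction still at 0. For these left-out libraries the share over all tested genes is not given, so a change in the members alone is not shown. With total counts in place of TMM, 7 were higher and 4 lower, beside 717 and 354 of all tested genes, where TMM gave 639 and 569, and the median over all tested genes moved from 0.01 to 0.11. The markers of CD8 T and NK cells summed to 10.6 to 34.0 CPM with first number 1 and to 35.3 to 102 CPM with 2, those of B cells to 114 to 224 and 175 to 318 CPM, and those of T cells to 6859 to 7683 and 5269 to 7794 CPM (within WT 7504 to 7561 and 6019 to 6268 CPM). The share of reads that fell in no gene was 4.92% to 7.72% in the libraries with first number 1 and 7.79% to 9.36% in those with 2, with no overlap. The part of these values in the differences between first numbers was not tested.

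Promoter sequences bear on whether the 2 directions share letters that regulators of these genes are known to bind. NRF1, ETS-family factors such as GABPA, and YY1 are known activators of nuclear genes for mitochondrial proteins. The 250 bases before the start site are shown for Sdha and Cox6b1, which were higher with first number 2, and for Ndufv2 and Ndufs3, which were lower, from RefSeq on the GRCm38.p6 build. Capitals mark matches to an NRF1-type string (GCGCNTGCG), an ETS-type string (CCGGAAG) or a YY1-type string (AAGATGGCG) on either strand. The windows are chr13:74350241-74350490, minus strand (Sdha), chr7:30626115-30626364, minus strand (Cox6b1), chr17:66101560-66101809, minus strand (Ndufv2) and chr2:90904722-90904971, minus strand (Ndufs3).
Sdha: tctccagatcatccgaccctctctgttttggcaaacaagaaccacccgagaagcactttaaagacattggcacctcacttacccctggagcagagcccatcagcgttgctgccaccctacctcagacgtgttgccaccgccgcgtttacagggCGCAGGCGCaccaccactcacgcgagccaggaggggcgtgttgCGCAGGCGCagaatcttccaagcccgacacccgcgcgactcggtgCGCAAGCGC
Cox6b1: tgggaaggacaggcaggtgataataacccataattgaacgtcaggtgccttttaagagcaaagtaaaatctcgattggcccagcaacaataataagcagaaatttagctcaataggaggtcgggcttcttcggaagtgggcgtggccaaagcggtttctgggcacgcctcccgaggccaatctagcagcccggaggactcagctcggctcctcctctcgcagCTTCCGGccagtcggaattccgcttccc
Ndufv2: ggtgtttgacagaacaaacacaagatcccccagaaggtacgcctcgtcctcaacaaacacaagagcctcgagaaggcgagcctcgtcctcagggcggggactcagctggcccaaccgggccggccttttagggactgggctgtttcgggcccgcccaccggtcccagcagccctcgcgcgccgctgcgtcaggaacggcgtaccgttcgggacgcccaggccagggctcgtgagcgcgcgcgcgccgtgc
Ndufs3: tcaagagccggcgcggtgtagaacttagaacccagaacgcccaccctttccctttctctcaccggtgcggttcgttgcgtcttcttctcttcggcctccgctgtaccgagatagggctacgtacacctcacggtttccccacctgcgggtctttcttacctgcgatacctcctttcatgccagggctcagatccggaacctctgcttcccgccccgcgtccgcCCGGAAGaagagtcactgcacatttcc
The Sdha window held 3 NRF1-type matches, those of Cox6b1 and Ndufs3 1 ETS-type match each, and that of Ndufv2 none of these letters. The windows of the other called genes that had one, Ndufc2, Ndufa4, Ndufb11, Cox7a2l and Atp5d, are not shown and held no match. The windows shown thus hold matches more often than those of all called genes.

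Of the 85 genes, 69 had a window in the RefSeq table. Among the 61 of them that were tested, 16 (26.2%) held the NRF1-type string, beside 14.7% of the 5307 tested genes with a window and 5.88% of the 27025 genes of the table. A shorter string, CGCATGCG, which is the end of the longer one with N as A, had been searched first. It was in 7 of the 61 (11.5%), beside 4.35% and 1.75%. These 7 are not all among the 16, since Atp5j held the shorter string alone. The longer string was chosen after those counts had been seen. The ETS-type string was in 10 of the 61 (16.4%), beside 19.2% and 7.83%, and the YY1-type string in 2 (3.28%), beside 1.96% and 0.71%. Of the called genes with a window, 1 of 4 higher and 0 of 5 lower held the NRF1-type string, and 1 of 4 and 1 of 5 the ETS-type string. These are letter matches and show neither binding nor regulation.

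Within the groups of 3 libraries that share genotype and first number, the median SD of log2 CPM was 0.31 over the 73 genes and 0.57 over all tested genes. Genes with higher counts vary less, and among genes with a mean of at least 50 counts the medians were 0.30 (67 genes) and 0.41. Above that floor the sets were not matched for counts, so the part of depth in the remaining gap was not tested. By complex it was 0.36 for I, 0.35 for II, 0.29 for III, 0.29 for IV and 0.27 for V. Atp5c1 and Atp5g3 had the smallest spread, 0.12 each, and Ndufs1, with a mean of 76.7 counts, the largest, 0.82. Spread did not follow the complex or the count alone: Atp5sl, filed under complex V, had 0.69, Ndufv1 with a mean of 135 counts 0.65, and Ndufs5 with 42.2 counts 0.26.

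Other genes of the same pathways were counted from fixed lists. Of all tested genes, 16.0% passed between first numbers (8.47% higher with 2 and 7.54% lower) and 0.0265% for KI against WT. Of 5 further subunits or regulators outside the symbol rule, all tested, 0 passed for KI against WT and 1 passed between first numbers: Cyc1, the cytochrome c1 of complex III, had 200 ± 30.1 CPM with first number 1 and 117 ± 41.1 CPM with 2 (SD, n = 6 each; log2 difference -0.78, SE 0.21; edgeR adjusted p = 0.0155), the reverse of Uqcrb in the same complex. Of 36 assembly factors, 23 were tested and 0 passed in any of the 3 tests. The smallest p for KI against WT in these lists belonged to Surf1, which helps to build complex IV, at 85.7 ± 43.8 CPM over the WT and 139 ± 35.2 CPM over the KI libraries (SD, n = 6 per genotype; log2 fold change 0.68, SE 0.30; edgeR adjusted p = 0.917).

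Of 14 regulators of mitochondrial biogenesis, 11 were tested and 1 passed between first numbers, beside 16.0% of all tested genes. Yy1 was the gene that passed between first numbers, with 39.0 ± 13.8 CPM with 1 and 81.5 ± 16.5 CPM with 2 (SD, n = 6 each; log2 difference 1.08, SE 0.27; edgeR adjusted p = 0.00894). Of 16 tested genes of the tricarboxylic acid cycle and pyruvate dehydrogenase, which feed electrons into the chain, 3 were higher with first number 2 and 0 lower. The shares of all tested genes were 8.47% and 7.54%, and counts this small were not tested against them. The 3 higher genes were Dld, a shared subunit of the dehydrogenase complexes (log2 difference 1.63, SE 0.45; edgeR adjusted p = 0.0157), Sucla2, a subunit of succinyl-CoA ligase (1.49, SE 0.42; edgeR adjusted p = 0.0192), and Fh1, fumarate hydratase (1.09, SE 0.35; edgeR adjusted p = 0.0340). For KI against WT, 0 genes passed in any of these lists.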

How the data were processed

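RNA was measured by sequencing in 12 libraries. The authors deposited a table of raw read counts per gene symbol and a table of FPKM values, whose headings are those of HTSeq and Cufflinks, per the file headers. The submitters' processing notes name CASAVA, TopHat2, Cufflinks, HTSeq and DESeq2 and the mm9 build, without roles or versions. Annotation and use of strand are not given in the sources used here. The 5 summary entries of the count table (reads not assigned) were left out of library totals and tests; reads aligned to more than 1 place are the main one. Among the names of the FPKM values, 27 occurred more than once and their values were summed.

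The tests of counts used edgeR 4.0.16 (R 4.3.3): filterByExpr by genotype, TMM, the quasi-likelihood F test, and Benjamini-Hochberg adjustment over all 7542 tested genes at 0.05. KI was compared with WT without a block, first number 2 with 1 in a model with genotype, and their interaction was tested. CPM are TMM-scaled. List medians carry no test. The scripts were tested on simulated data. Alternatives were DESeq2 1.42.0, limma 3.58.1 (voom, and log2 of FPKM plus 1 or 0.1), other scalings and filters, blocks, subsets and left-out libraries. Among pairs of libraries of a genotype the chi-square per degree of freedom was 8.58 to 37.0, so no library was counted as a duplicate.

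Named are the core subunits (1 of which is not reported here), isoform groups, the highest and lowest gene of each complex, and in each direction of each test up to 6 called genes, or the 3 with the smallest p where none passed; in other lists up to 4 called genes, or else the 1 with the smallest p. Other genes named were chosen after their values were seen. The members and lists were chosen with earlier results of these data known.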

Additional observations from a re-analysis of the deposited data

Results flagged for a closer look

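In 3 of 90 sets of 6 libraries (a named gene's CPM, or a mean or share over the members, in 1 genotype), 1 library stood far from the others, and about 1 in 20 sets would do so by chance. Uqcrc1 was at 488 CPM in WT 1-1 with the next WT library at 347. Ndufv1 was at 222 CPM in KI 1-3 with the next KI library at 112. Atp5sl was at 50.2 CPM in KI 1-3 with the next at 17.5, from 73 counts.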

How the results depend on the processing

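For KI against WT and for the interaction, 0 members were called under every alternative. Between first numbers, members called were 18 with DESeq2, 17 with limma-voom, 3 and 4 with FPKM at pseudocounts 0.1 and 1, 4 in WT alone, and 6 to 14 with 1 library left out. The shares over all tested genes in these settings are not given here. These counts therefore do not show whether the members moved apart from other genes. Of the results for single named genes between first numbers, 54 values lost the call and 11 gained it over all alternatives, and no called gene changed sign. Median log2 fold changes moved as follows. KI against WT, first number 1 alone: -0.15 for the members, -0.11 for complex I and 0.33 for complex II; first number 2 alone: 0.26 for complex IV and 0.20 for complex V. First number 2 against 1, KI alone: 0.0326 for the members, 0.57 for complex II and 0.15 for complex V; WT alone: -0.24 for the members, -0.36 for complex IV and -0.20 for complex V; no filter: 0.47 for complex II, where more genes entered. Interaction, FPKM at pseudocounts 0.1 and 1: -0.0390 and -0.0389 for the members, -0.0491 and -0.0493 for complex I, -0.78 and -0.76 for complex II, 0.0358 and 0.0357 for complex IV and -0.21 in both for complex V; with total counts: 0.0747 for the members, 0.10 for complex I, 0.15 for complex IV and -0.0856 for complex V; with 1 library left out: 0.17 to 0.37 for the members, 0.16 to 0.40 for complex I and 0.0597 to 0.302 for complex V. The cause was not tested, except that FPKM and total counts also moved the median of all genes. Depth limits genes under 50 counts per library most.

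The shared title numbers do not count as pairing: libraries with both numbers alike had deviations correlated at 0.083 to 0.258, over 0.1 in 5 of 6 pairs. Over pairs sharing the first number the mean was 0.166, and over pairs that did not it was -0.165. For KI against WT, a replicate block on the first number gave 0 called members (median 0.0276), and a block on both numbers gave 0 (median 0.0122).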
